A study of Homo sapiens with 3 samples.

Results

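The CDK inhibitor genes encode the proteins that hold cyclin-dependent kinases (CDKs) in check, and they were followed in GFP-SAS cells, a culture of the human tongue carcinoma line SAS, after small interfering RNA (siRNA) against AKT1. The members were all probe sets that the platform annotation assigns to 1 of 8 listed genes alone: CDKN2A, CDKN2B, CDKN2C, CDKN2D, CDKN1A, CDKN1B, CDKN1C and CDKN3. This gave 23 of the 45253 single-gene probe sets and 7 of the 8 genes; CDKN2C was not analysed here. No probe set that names several genes named one of them. The genes were singled out with earlier results of the same 3 arrays known, so the values are a description without a test.

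The groups were siAkt1, with 1 library exposed to siAkt1-22 and 1 to siAkt1-58, and siNT, with 1 library exposed to a non-targeting siRNA. Every library received 10 nM of siRNA for 24 h, all were of the culture named GFP-SAS, and the question was how expression differed after knockdown of AKT1, a kinase of the PI3K pathway. All 3 libraries come from 1 cell line, and the labels do not say whether separate cultures were used. Values are log2 expression per probe set, made with RMA by the submitters, and a difference is a siAkt1 library minus siNT on that log2 scale, where 1 is a doubling.

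CDKs drive the cell cycle when bound to cyclins. The INK4 proteins p15 (CDKN2B), p16 (CDKN2A), p18 (CDKN2C) and p19 (CDKN2D) bind CDK4 and CDK6 and keep the D cyclins away, so that the retinoblastoma protein RB1 stays unphosphorylated and E2F factors stay silent. The CIP/KIP proteins p21 (CDKN1A), p27 (CDKN1B) and p57 (CDKN1C) bind whole cyclin-CDK complexes, above all those of CDK2. CDKN3 stands apart as a phosphatase that removes the activating phosphate from CDK2, and its transcript is made mostly by dividing cells. AKT is known to phosphorylate p21 and p27 and to keep FOXO factors, which can switch on CDKN1B, out of the nucleus. In squamous carcinomas the locus of CDKN2A and CDKN2B, neighbours on chromosome 9, is often deleted or silenced.

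AKT1 itself read 3.67 with siAkt1-22 and 3.47 with siAkt1-58, against 6.75 with siNT, in its brightest probe set. Epithelial identity was visible: EPCAM, an epithelial adhesion molecule, read 11.67 and 11.29 with the siAkt1 siRNAs and 11.38 with siNT, and the basal keratin KRT5 read 9.16 and 10.03, against 9.51. KRT14, another basal keratin, read at most 3.67, close to the floor. Of 15 fibroblast, endothelial and immune markers, 14 were on the array and 13 of them read at most 4.50 in every library. The exception was CD68, a lysosomal protein used as a macrophage marker, at 6.75 and 7.14 against 6.33; its part in the results below was not tested. The siAkt1-22 library stood further from siNT than the siAkt1-58 library: the share of tested probe sets 2-fold or more from siNT was 3.52% above and 5.95% below with siAkt1-22, and 1.3% above and 3.22% below with siAkt1-58. Tested probe sets were the 31677 single-gene ones with a mean log2 value at or above the 30th percentile, 3.63. Of the 23 CDK inhibitor probe sets, 19 lay above that level and 4 below it.

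With both siRNAs at once, 3 of the 23 CDK inhibitor probe sets were at least 2-fold higher than siNT, where 0.565% of all tested probe sets were, and 0 were at least 2-fold lower, where 1.11% were. The 3 belonged to CDKN2B (2 probe sets) and CDKN1A (1 probe set). Since the genes were chosen on this contrast, nothing is read from the difference between these shares. With siAkt1-22 alone, 5 of the members reached the 2-fold limit above siNT (3.52% of tested probe sets did) and 0 below it (5.95%). With siAkt1-58 alone, 3 reached it above (1.3%) and 2, both of CDKN3, below (3.22%). By any amount, 7 of the 19 members above the filter level lay above siNT with both siRNAs, the 3 past 2-fold among them, and 8 lay below it with both, where 28.3% of all tested probe sets lay above and 21.9% below. The 7 above belonged to CDKN2A (3), CDKN2B (2) and CDKN1A (2). Of the 8 below, 7 belonged to CDKN3 and may share probes, and 1 to CDKN2D. Another 2 of the 19 were split and 2 equalled siNT in at least 1 siAkt1 library. No difference has a replicate check, because each siRNA had 1 library and both differences use the same siNT library. Both siAkt1 libraries were also taken as 1 group and compared with siNT by limma. With 1 residual degree of freedom this fit has little power. A probe set that does not pass is therefore not shown to be unchanged. Of the 31677 probe sets, 0 (0%) passed an adjusted p of 0.05 (lowest adjusted p = 0.518, 2700 with an unadjusted p under 0.05).

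**Figure D1:**
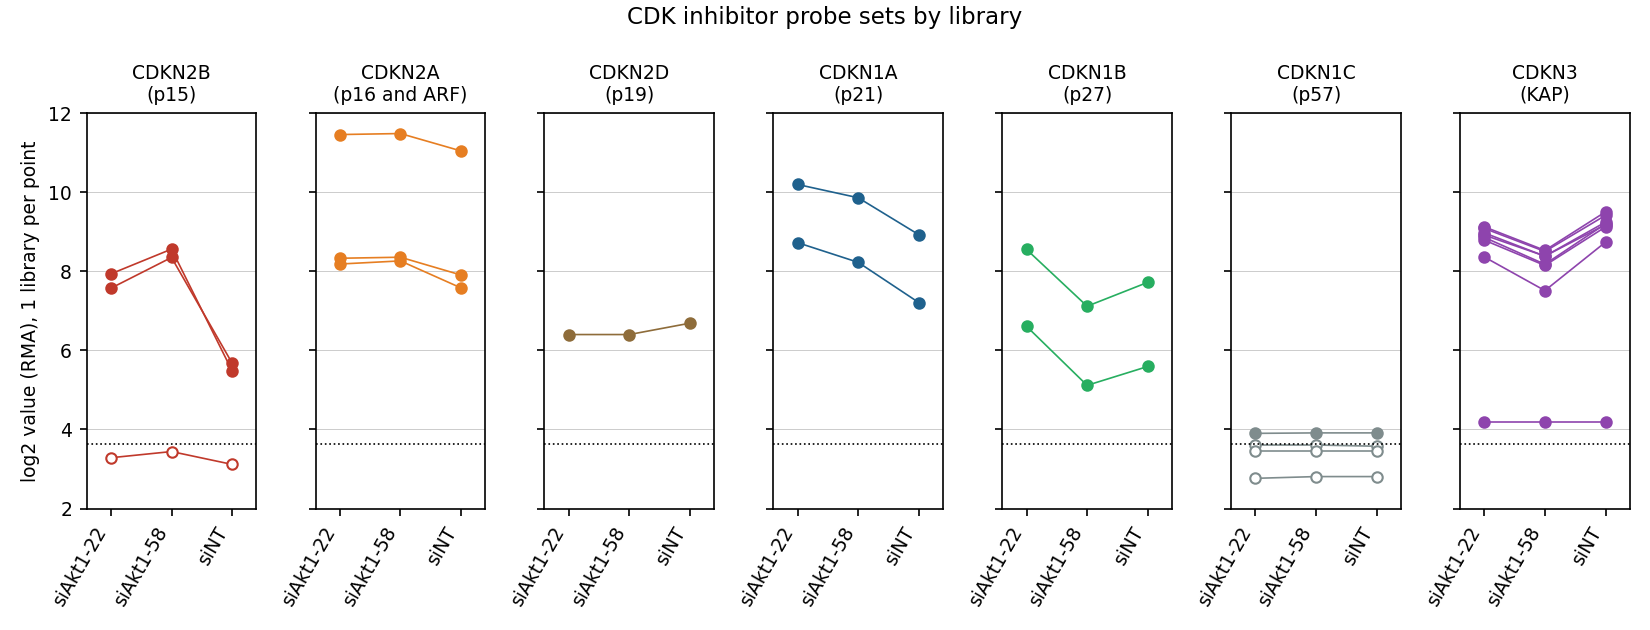
Log2 value (vertical axis) of each of the 23 CDK inhibitor probe sets in the siAkt1-22, siAkt1-58 and siNT libraries, with 1 panel per gene and 1 line per probe set; open points are probe sets whose mean is below the filter level of 3.63 (dotted line). The brighter CDKN2B lines sit near 8 with both siAkt1 siRNAs and below 6 with siNT, CDKN1B lines are highest with siAkt1-22 and lowest with siAkt1-58, and CDKN1C lines lie flat below 4.

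CDKN2B, which encodes p15, the INK4 protein best known as a target of TGF-beta, was the member furthest from siNT. Its brightest probe set read 7.93 with siAkt1-22 and 8.56 with siAkt1-58, against 5.48 with siNT. Both siAkt1 libraries were thus well above the siNT library, siAkt1-58 the higher of them. The differences were 2.45 (5.47-fold) and 3.08 (8.44-fold), with a mean of 2.77 ± 0.44 (SD, n = 2 siRNAs). Of the 31677 tested probe sets, this was the only 1 with a difference of at least 2.45 with both siRNAs. Ranked by gene, CDKN2B was number 1 of 12779 tested genes with siAkt1-58 and number 12 with siAkt1-22. In a bulk culture, more cells that make p15 mRNA and more of it per cell cannot be told apart.

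The next CDKN2B probe set gave the same order of libraries. It read 7.57 with siAkt1-22 and 8.35 with siAkt1-58, against 5.68 with siNT, so the differences were 1.89 and 2.67. The third CDKN2B probe set was dim, below the filter level in every library, at 3.29 and 3.44 against 3.12. Its differences of 0.17 and 0.32 kept the direction but are those of a probe set near the floor. Whether the low signal made them smaller was not tested. With all 3 probe sets averaged, the CDKN2B difference was 1.76 in place of 2.77.

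The windows around the annotated transcription starts are shown for CDKN2B and CDKN1A, the genes with a probe set higher by the size rule, and for CDKN1B, which was split. Each runs from 250 bases before the RefSeq start to 50 after it (GRCh38.p14, 5′ to 3′ along the gene), at chr9:22009256-22009555 on the minus strand, chr6:36678464-36678763 on the plus strand and chr12:12717118-12717417 on the plus strand. Capitals mark GC boxes, the letters GGGCGG on either strand, which factors of the SP1 family bind.
CDKN2B: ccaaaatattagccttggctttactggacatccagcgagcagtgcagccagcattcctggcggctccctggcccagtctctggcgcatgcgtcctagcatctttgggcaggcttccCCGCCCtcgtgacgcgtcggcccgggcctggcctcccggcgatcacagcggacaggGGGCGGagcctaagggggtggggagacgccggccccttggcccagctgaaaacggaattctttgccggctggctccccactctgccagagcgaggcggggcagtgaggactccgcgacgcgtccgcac
CDKN1A: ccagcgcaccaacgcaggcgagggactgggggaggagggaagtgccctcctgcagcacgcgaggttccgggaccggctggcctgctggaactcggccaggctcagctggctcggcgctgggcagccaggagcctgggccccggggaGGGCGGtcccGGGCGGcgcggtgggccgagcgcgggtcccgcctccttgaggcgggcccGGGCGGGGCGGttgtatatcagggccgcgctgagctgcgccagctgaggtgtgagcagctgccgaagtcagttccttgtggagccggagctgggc
CDKN1B: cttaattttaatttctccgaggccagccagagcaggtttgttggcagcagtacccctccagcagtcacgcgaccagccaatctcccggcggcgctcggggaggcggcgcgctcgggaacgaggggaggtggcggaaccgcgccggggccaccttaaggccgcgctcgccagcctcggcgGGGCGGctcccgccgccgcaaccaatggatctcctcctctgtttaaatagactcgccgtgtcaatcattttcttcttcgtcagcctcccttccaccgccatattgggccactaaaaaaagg

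The CDKN2B window held 2 GC boxes, beginning 134 and 78 bases before the start and on opposite strands. The CDKN1A window held 4 on the plus strand, at 104, 94, 45 and 40 bases before the start, the last pair sharing 1 base. CDKN1B had 1, at 71 bases before the start. CDKN2A has a pair of annotated starts: the window of the downstream one, which serves p16, held 2 GC boxes, and that of the upstream one, which serves the alternative protein ARF, held 0. CDKN2D had 3 and CDKN3 had 0. The window of CDKN1C was not searched. A GC box occurs in 45.0% of the 35116 windows of this length in the table, and 15.8% hold 3 or more, so these counts set no member apart. The forkhead letters GTAAACA, bound by FOXO factors, were in none of these windows and are in 3.42% of all. The SMAD letters CAGAC occurred once each in the ARF window and in that of CDKN2D (45.3% of all windows), and the letters TTTGAA of the cell cycle homology region (CHR) once, in CDKN3 (15.2% of all windows). The E-box CACGTG was in none of them, against 7.26% of all. All motifs were searched on both strands. These are matches of letters in a short window and say nothing of binding in these cells.

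CDKN2A shares its locus with CDKN2B but encodes p16 and, from the upstream start and another reading frame, ARF, which restrains MDM2. It was higher with both siRNAs by a small and nearly equal amount. The brightest CDKN2A probe set read 11.46 with siAkt1-22 and 11.48 with siAkt1-58, against 11.04 with siNT. Differences were 0.41 and 0.44 for this probe set, 0.42 and 0.45 for the next and 0.60 and 0.68 for the last, so all 3 agreed in direction and the siRNAs differed by at most 0.08. Differences of this size were not rare: 1667 of the tested probe sets (5.26%) lay at least 0.41 above siNT with both siRNAs. The last probe set was the only CDKN2A one past 1.5-fold with both, at 1.52-fold and 1.61-fold. It carries the suffix that marks probes able to match other transcripts, and whether these added to its difference was not tested. At least 1.5-fold above siNT with both siRNAs were 2.61% of tested probe sets, and 3.53% were as far below. Which of the transcripts for p16 and ARF the probe sets read was not resolved here.

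Of the listed neighbours of this locus, MTAP alone was above the filter level, and it lay on the other side of siNT. MTAP, a methionine salvage enzyme next to CDKN2A, read 8.13 and 8.34 with the siAkt1 siRNAs, against 8.84 with siNT, a difference of -0.71 and -0.50. Of its 6 probe sets, 5 were lower with both siRNAs and 1, the dimmest, was higher at 0.63 and 0.15. The antisense transcript CDKN2B-AS1 and the next gene, DMRTA1, were below the filter level, each at the same value in all 3 libraries (3.37 and 2.95).

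CDKN2D, encoding p19, had 1 probe set. It read 6.40 with either siAkt1 siRNA, against 6.69 with siNT, a difference of -0.29 with each. The siAkt1 values were exactly equal, which the median polish of RMA often gives with few arrays, so the absent spread between them is no measure of precision. A difference of at least this size below siNT with both siRNAs was found in 8.61% of tested probe sets.

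Among the CIP/KIP genes, CDKN1A was higher with both siRNAs. It encodes p21, the classic p53 target that arrests cells after DNA damage. Its brightest probe set read 10.19 with siAkt1-22 and 9.86 with siAkt1-58, against 8.92 with siNT, and the second read 8.72 and 8.23, against 7.21. In both, each siAkt1 library lay above siNT and siAkt1-22 was the higher. The differences were 1.27 and 0.93 in the brightest probe set (mean 1.10 ± 0.24, SD, n = 2 siRNAs) and 1.51 and 1.02 in the second. The siAkt1-58 values fell on either side of the 2-fold limit: the second probe set was 2.02-fold higher and just inside, the brightest 1.91-fold higher and just outside. Order also differed from CDKN2B, whose higher library was siAkt1-58.

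CDKN1B, encoding p27, went opposite ways with the siRNAs. The brightest CDKN1B probe set read 8.55 with siAkt1-22 and 7.12 with siAkt1-58, against 7.72 with siNT, so that siNT lay between them. The second probe set repeated this at a lower level, with 6.61 and 5.12 against 5.59. Differences were 0.83 and -0.60 in the brightest and 1.02 and -0.48 in the second. Between the siRNAs the gap was 1.44 and 1.49, at least 2-fold in both probe sets, as in 4.08% of tested probe sets; in 5.29% siAkt1-22 was the lower by as much. By any amount, 12.3% of tested probe sets lay above siNT with siAkt1-22 and below it with siAkt1-58, and 12.1% the other way round. These were the only 2 of the 23 members at least 2-fold apart between the siRNAs. The mean over both siRNAs, 0.11 ± 1.02 (SD, n = 2), therefore describes neither library.

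CDKN1C, encoding the imprinted inhibitor p57, was dim throughout. Its 4 probe sets read between 2.77 and 3.91, 3 of them below the filter level, and differences ran from -0.04 to 0.03. One probe set had the same value in all 3 libraries, and the others had 2 equal libraries. At this signal a fall could not have been seen, and no library stood clear of the floor. Of its imprinted neighbours, PHLDA2, a growth restraint in placenta, read 7.51 and 8.80 against 7.21, and KCNQ1OT1, the antisense RNA of the domain, read 2.76 in all 3 libraries.

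CDKN3, the phosphatase, was lower with both siRNAs and more so with siAkt1-58. Its brightest probe set read 9.12 with siAkt1-22 and 8.53 with siAkt1-58, against 9.50 with siNT. The differences were -0.38 and -0.97, with a mean of -0.68 ± 0.42 (SD, n = 2 siRNAs). Of 8 probe sets, 7 had this order, with differences from -0.38 to -0.26 with siAkt1-22 and from -1.23 to -0.80 with siAkt1-58. With siAkt1-58 2 of them passed the 2-fold limit, at -1.02 and -1.23, and the nearest outside stood at -0.97. All 7 carry the suffix that marks probes able to match other transcripts, and they may share probes, so they are not 7 independent readings. The eighth, dim probe set read 4.18 in all 3 libraries.

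**Figure D2:**
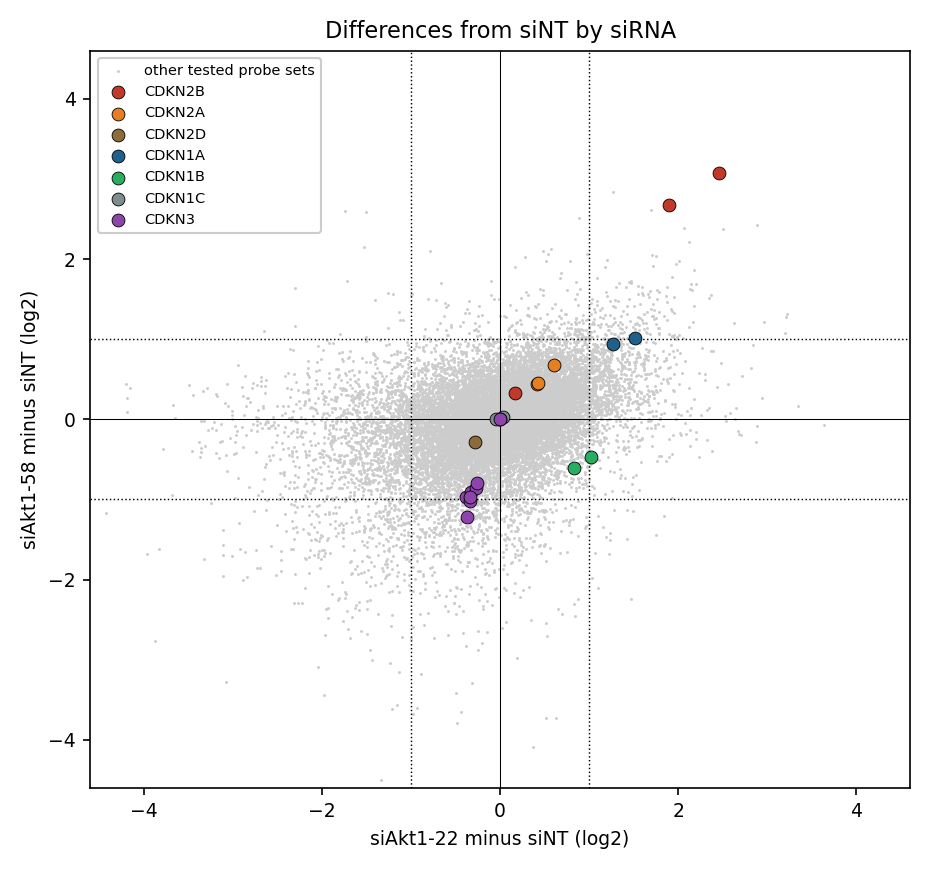
Log2 difference of siAkt1-22 from siNT (horizontal axis) against that of siAkt1-58 from siNT (vertical axis); grey points are other tested probe sets, 1 of which lies outside the axes, and coloured points the 23 CDK inhibitor probe sets. Dotted lines mark 2-fold; the brighter CDKN2B points lie at the upper right edge of all probe sets, CDKN1B at the lower right and CDKN3 below 0. Both axes use the same siNT library, so the slope of the grey cloud is no sign of a shared effect.

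For CDKN2B and CDKN1A, the 2 inhibitors with a probe set past the size rule, the genes with the closest pattern were sought. They were found by the distance between pairs of differences, over 3 libraries and the brightest probe set of each tested gene. For CDKN1A that probe set was just outside the rule with siAkt1-58. CDKN2B had few near it. TSPAN31, a tetraspanin encoded beside CDK4, was closest at a distance of 0.71, with differences of 2.50 and 2.37, followed by CHIC1 at 0.79, ANKRD22 at 0.89, PPA2 at 1.18 and TXNIP at 1.24. No gene lay within 0.25 of it. Around CDKN1A there were 68 genes within 0.25. The nearest were COA5, TAF10, ETFRF1, LDAF1 and PDCD4, at distances of 0.025 to 0.069, and PDCD4, an inhibitor of translation, had differences of 1.21 and 0.90.

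Genes on which the CDK inhibitors act, and those known to set their levels, were read through lists of the same pathway. Of 97 genes listed, 86 were tested, and by the 2-fold rule with both siRNAs 0 were higher and 9 lower. Among all 12779 tested genes 0.736% were higher and 1.17% lower by that rule. By any amount with both siRNAs, 30.9% of tested genes were higher and 21.4% lower, and the median difference was 0 with each siRNA. Over the 86 list genes the medians were -0.22 with siAkt1-22 and -0.40 with siAkt1-58.

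Of 12 CDKs and cyclins, 10 lay below siNT with both siRNAs, 4 of them by 2-fold or more, with medians of -0.63 and -1.17. The count of 4 was 2 with the probe sets of each gene averaged, 5 with siAkt1-22 alone and 8 with siAkt1-58 alone. CCND1, the cyclin D1 that p15 and p16 keep from CDK4, read 9.70 with siAkt1-22 and 8.90 with siAkt1-58, against 10.86 with siNT, and all 4 of its probe sets were at least 2-fold lower with both. CCND2, the cyclin D2, read 3.53, near the floor, and 7.25, against 8.55 (-5.02 and -1.30), while its dimmest probe set was -0.10 with each. CCNE1, a cyclin that activates CDK2, read 5.41 and 5.56, against 6.77, while its other probe set, near the floor, was -0.02 and 0. CCNE2, the other E cyclin, read 7.25 and 4.08, against 8.59 (-1.34 and -4.50), and its other probe set was -0.98 and -2.60. The exceptions were CDK4, which was higher with both, and CCND3, another D cyclin, which was split. CCND3 read 8.10 and 6.72, against 7.85 (0.25 and -1.13). CDK4 read 9.64 and 8.70, against 8.19 (1.44 and 0.51), whereas CDK6 read 7.93 and 9.55 against 10.24 (-2.31 and -0.69). The 2 kinases that INK4 proteins bind thus lay on opposite sides of siNT, each in all 4 of its probe sets and further out with siAkt1-22.

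Downstream of the inhibitors, 8 of 13 E2F-driven replication genes were lower with both siRNAs, 1 of them by 2-fold or more, with medians of -0.09 with siAkt1-22 and -1.20 with siAkt1-58. The count of 1 was 2 with probe sets averaged, and it was 1 with siAkt1-22 alone and 7 with siAkt1-58 alone. The gene past 2-fold with both was MCM6, a subunit of the replicative helicase, at 5.81 and 6.25 against 7.99 (-2.18 and -1.74). RRM2, a ribonucleotide reductase subunit, was -0.84 and -1.47, and CDC6, a replication licensing factor, -0.92 and -1.89. TYMS, the thymidylate synthase, stood furthest apart between the siRNAs, at 9.76 and 5.30 against 9.39 (0.37 and -4.09), and its other probe set was split likewise (0.63 and -3.72). TK1, a thymidine kinase, was also split, at 0.67 and -0.64. Of 12 tested pocket proteins and E2F factors, 10 were lower with both and 0 by 2-fold (3 with siAkt1-22 alone and 1 with siAkt1-58 alone), with medians of -0.32 and -0.28. RB1 was -0.24 and -0.69, while its dimmest probe set was split, at 0.26 and -0.16. E2F7, an E2F repressor, was -2.96 and -0.42, but 0 and -0.03 in its other, dimmer probe set. TFDP1, the partner of E2F factors, was -1.98 and -0.22.

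Enzymes that act on CDK phosphates were divided. Of 8, 4 were lower and 1 higher with both siRNAs, with 0 by 2-fold in either direction and medians of 0 and -0.48. After a loess correction 1 was lower by 2-fold with both, and 1 was with siAkt1-22 alone and 2 with siAkt1-58 alone. CDC25A, the phosphatase that activates CDK2, read 8.21 and 7.34, against 9.18. CDK7, the CDK-activating kinase, was 0.90 and 0.17, and WEE1, which inhibits CDK1, -0.37 and -1.83.

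Factors that mark CIP/KIP proteins for destruction were lower in 6 and higher in 4 of 13 cases with both siRNAs, 2 of them at least 2-fold lower (1 with the filter at the 50th percentile), with medians of -0.22 and 0.05. SKP2, the F-box protein that targets p27, read 4.30 and 3.92, against 5.55, so that its siAkt1 values lay near the floor. CKS1B, the cofactor of SKP2 in that step, read 8.09 and 9.12, against 9.84, and its 3 probe sets were all lower with both siRNAs. DTL, which presents p21 to a CUL4 ligase, was -1.47 and -1.72. RNF123, part of a cytoplasmic ligase for p27, was 0.50 and 0.41.

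Regulators known to act on transcription of the inhibitors lay on both sides. Of 25 tested, 7 were higher and 8 lower with both siRNAs, 2 of them at least 2-fold lower (TGFBR1 and MDM2), with medians of -0.03 and 0. That count was 1 with probe sets averaged and 4 with siAkt1-58 alone. FOXO3 read 8.94 and 9.02, against 8.39, and its 3 probe sets were 0.46 to 0.71 higher. ID1, which restrains transcription of CDKN2A through ETS factors, was 0.76 and 1.15, and ETS1 was -0.56 and -0.62. ZBTB17, the factor through which MYC represses CDKN2B and CDKN1A, was 0.73 and 0.36 in its brightest probe set. Its dimmer probe sets ran from 0 to 0.03 with siAkt1-22 and from 0 to 0.12 with siAkt1-58. SMAD4, the shared SMAD of TGF-beta signalling, was split in the manner of CDKN1B in its brightest probe set, at 0.52 and -1.14. Not all of its dimmer probe sets followed. The SMAD4 probe set at 6.69 with siNT stood at 0 and -0.28, and that at 5.78 with siNT at -0.34 with each siRNA. The remaining SMAD4 probe sets had the signs of the brightest. EZH2, a Polycomb methyltransferase that silences CDKN2A, was also split in the manner of CDKN1B, at 0.18 and -1.35. TGFBR2, the gene of this list furthest apart between the siRNAs, was split the other way. It stood at -2.65 and 1.11, and at -1.02 and 0.72 in its other probe set. Other genes of this list were split in each direction by less.

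**Figure D3:**
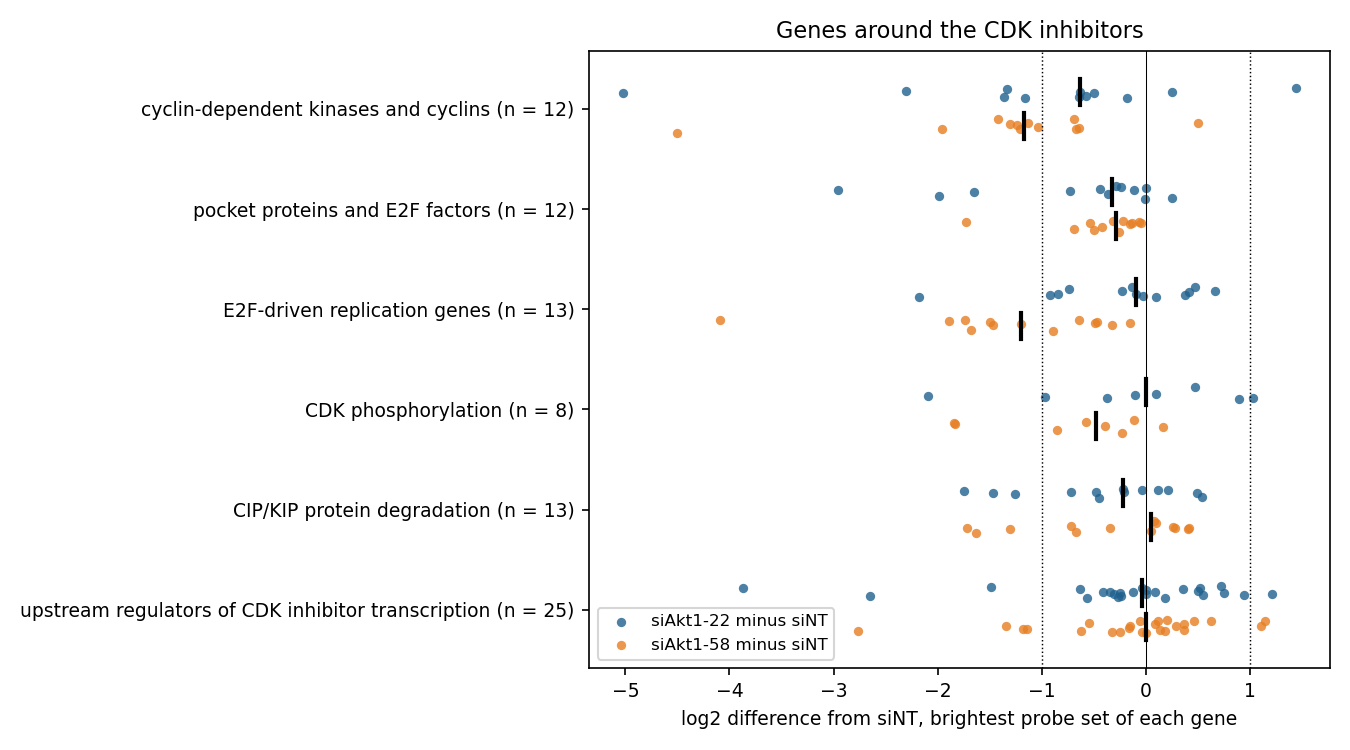
Log2 difference from siNT (horizontal axis) of the tested genes of 6 lists, 1 point per gene from its brightest probe set, blue for siAkt1-22 and orange for siAkt1-58; black bars are medians and dotted lines mark 2-fold. The CDKs and cyclins have medians of -0.63 and -1.17, and E2F-driven replication genes -0.09 and -1.20.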

How the data were processed

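Total RNA of 3 libraries (10 ng each) was labelled with a 3' in vitro transcription kit, per the labels' protocols. The authors deposited log2 values made with RMA, per the submitters' processing notes, and the RMA software is not given in the sources used here. RMA corrects background, equalises arrays and summarises probes by median polish, and in 45.3% of the 49386 probe sets at least 1 pair of libraries had exactly equal values. The log2 scale was inferred from the range of 2.20 to 13.4.

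Symbols came from the platform annotation, updated through Entrez identifiers (45172 of 45253 single-gene probe sets matched). Promoter windows are RefSeq's. Lists used the brightest probe set of a gene and 12779 genes at or above the 30th percentile of gene means (3.93). A 2-fold rule of size stood in for a test. Limma 3.58.1 in R 4.3.3 (lmFit, eBayes, two-sided, Benjamini-Hochberg) was run over all tested probe sets with 1 residual degree of freedom and was tested on simulated data; the lone siNT library is assumed to vary like the siAkt1 libraries, and the p-values reflect no more than the spread among these samples. Genes of the lists were named from those furthest from siNT with both siRNAs and those furthest apart between the siRNAs, with EPCAM, KRT5, KRT14, CD68, CDKN2B-AS1, DMRTA1 and KCNQ1OT1 added for their roles and CCND3 added after its values were seen. The members, lists and rules were chosen with earlier results of these data known. Alternatives were median centring, quantile normalization, a loess correction, other filters, a 1.5-fold limit, averaged probe sets, other eBayes settings and each siAkt1 library left out. With 3 arrays, precision is limited by their number.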

Additional observations from a re-analysis of the deposited data

Results flagged for a closer look

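CDKN1B was marked because the siRNAs stood on opposite sides of siNT, above it with siAkt1-22 and below it with siAkt1-58, in both of its probe sets. The gap of siAkt1-22 over siAkt1-58 was 1.44 in the brightest probe set and 1.49 in the second. With 1 library per siRNA the difference was not tested. In all tested probe sets, 12.3% lay above siNT with siAkt1-22 and below it with siAkt1-58 by any amount, and in 4.08% siAkt1-22 exceeded siAkt1-58 by 2-fold or more.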

How the results depend on the processing

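No paired analysis was possible because siNT has 1 library. With the limit at 1.5-fold there were 5 CDK inhibitor probe sets higher with both siRNAs (with 2.61% of tested probe sets higher and 3.53% lower), and 1 higher and 18 lower among the genes of the lists. Leaving out each siAkt1 library in turn gave 3 to 5 CDK inhibitor probe sets higher and 0 to 2 lower, 1.30% to 3.52% of tested probe sets higher and 3.22% to 5.95% lower, and 3 higher and 16 to 25 lower among the list genes (the 3 is the count without either library). After a loess correction the count of higher CDK inhibitor probe sets was 2, because the second CDKN1A probe set stood at 0.99 with siAkt1-58. With all probe sets averaged the mean difference was 1.76 for CDKN2B and 0.50 for CDKN2A; the dim CDKN2B probe set and the third CDKN2A one enter those means. The loess correction gave 0.38 for CDKN2A, -0.31 for CDKN2D and -0.018 for CDKN1C. For CDKN2D, median centring gave -0.28 and quantile normalization -0.25. Between the siRNAs (siAkt1-22 minus siAkt1-58), CDKN2A stood at -0.051 after quantile normalization and -0.068 after loess. CDKN1C stood at -0.024 after median centring and -0.025 after quantile normalization, and CDKN2D at -0.012 after median centring, 0.019 after quantile normalization and -0.0065 after loess. The shifts of CDKN2A, CDKN2D and CDKN1C are set against a very small spread between the siAkt1 libraries. Of the values recomputed for the CDK inhibitors, the background shares, the lists as a whole and limma, 107 were counted as kept and 29 were not. Kept meant within the spread between the siAkt1 libraries or, for counts and shares, within 1.5 times. For single lists these numbers were 180 and 36. For the mean difference of a CDK inhibitor, leaving out 1 siAkt1 library cannot exceed that spread, so those values were bound to be kept. CDKN1B was among them, at -0.60 without siAkt1-22 and 0.83 without siAkt1-58, against 0.11 with both. Limma called 0 probe sets under each of 7 alternatives (lowest adjusted p from 0.165 to 0.85, with 1402 to 4782 at an unadjusted p under 0.05). The single siNT library enters every difference, and signal near the floor limits CDKN1C, the dim CDKN2B probe set, SKP2 and the AKT1 values.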
